A study of Mus musculus with 2 samples.

Results

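Natural killer (NK) cells were taken from droplet libraries of leukocytes sorted from B16-F10 tumours, a transplanted mouse melanoma. A cell barcode was called NK when it held at least 2 unique molecular identifiers (UMIs, 1 per captured RNA molecule) of Klrb1c and Ncr1 together, no UMI of the T cell receptor complex genes Cd3e and Cd3g, under 5 UMIs of the phagocyte genes C1qa, C1qb, C1qc and Lyz2, and under 10 UMIs of the melanocyte genes Pmel, Mlana and Dct. Klrb1c encodes NK1.1 and Ncr1 encodes NKp46, the receptors by which mouse NK cells are usually stained. There were 437 such cells among 13854 barcodes that passed the quality limits, of 15756 deposited. They were 217 of 7500 passing barcodes in the library of treated mice, whose OX40 receptor was targeted with an agonist antibody, and 220 of 6354 in the library from control mice. All mice were female, wild-type C57BL/6 animals implanted with tumour cells under the skin of the right flank at 10 weeks of age, and live cells were sorted as DAPI- CD45+. Each group was 1 library of 10x Chromium 3′ v3 chemistry, and the number of mice in it, the antibody dose and its timing are not given in the sources used here. With 1 library per group no test between groups is possible, so the intervals below cover counting error only, and differences between animals were not measured.

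NK cells are innate lymphocytes that kill through perforin and granzymes and release interferon-gamma and chemokines. In the mouse, activating receptors such as NKp46, NKG2D and some Ly49 receptors are set against inhibitory Ly49 and CD94/NKG2A receptors that bind MHC class I molecules. Conventional NK cells depend on the transcription factor Eomes, and related tissue-resident group 1 innate lymphoid cells usually carry CD49a (Itga1) and CXCR6 and little Eomes.

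NK cells made up 2.89% of passing barcodes in the OX40 agonist library (95% exact interval 2.53 to 3.30%) and 3.46% in the control library (3.03 to 3.94%). The ratio of the shares was 0.836, with a counting interval of 0.690 to 1.01, which includes equal shares. NK cells were shallow: their median was 3700 UMIs in the OX40 agonist library and 4950 in the control library, against 10160 and 12385 in CD8 T cells, defined by at least 2 UMIs of Cd3e and Cd3g, at least 2 of Cd8a and Cd8b1, none of Klrb1c and Ncr1, and the same limits otherwise. In all, 967151 UMIs of treated and 1248742 UMIs of control NK cells stand behind the levels below, which are UMIs summed over cells and given per 1000000 UMIs (CPM). The libraries had 18 barcodes in common, none of them an NK cell. With 1 UMI of Klrb1c and Ncr1, just outside the threshold, lay 44 treated and 29 control cells, of which 84.1% and 86.2% held a UMI of the NK receptor gene Klre1. With exactly 2 UMIs there were 48 and 31 cells, of which 79.2% and 90.3% held one.

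Genes that the rule did not use were those of NK cells. Gzma, which encodes granzyme A, stood at 8182 CPM in treated and 7840 CPM in control NK cells, against 74.2 and 18.4 CPM in CD8 T cells and 2.75 and 1.61 CPM in phagocytes, the cells with at least 20 UMIs of C1qa, C1qb, C1qc and Lyz2. Klre1 stood at 651 and 652 CPM in NK cells and at 91.9 and 104 CPM in CD8 T cells. A UMI of Gzma or Klre1 was present in 212 of 217 treated and 213 of 220 control members. Eomes was at 229 and 247 CPM in NK cells and 48.9 and 48.2 CPM in CD8 T cells. Itga2, which encodes the NK integrin CD49b, was at 71.3 and 54.5 CPM, against under 1 CPM in CD8 T cells (0.640 and 0.425). The signalling adaptors Tyrobp (2527 and 2446 CPM) and Fcer1g (2273 and 2245 CPM) were among the most abundant receptor-linked messages. Fcer1g was less particular to NK cells than Gzma. In cells with no Klrb1c or Ncr1 UMI that met the other limits, Fcer1g was at 1040 and 1169 CPM and Gzma at 52.7 and 45.3 CPM. Klrd1, which encodes CD94, differed less between cell types, at 916 and 851 CPM in NK cells and 565 and 557 CPM in CD8 T cells, and so did Prf1 (perforin), at 919 and 929 CPM against 703 and 855 CPM. Klrb1c (658 and 597 CPM) and Ncr1 (393 and 368 CPM) chose the cells and are given as a description.

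Markers of other leukocytes were mostly low. The defining genes of group 2 and group 3 innate lymphoid cells Il1rl1, Il13, Il5, Il22, Il17a and Il23r had no UMI in either library's NK cells. Their whole list of 9 genes summed to 53.8 and 52.1 CPM, with a UMI in 17.97% and 25.5% of NK cells, against 89.5 and 149.94 CPM in CD8 T cells, and 51.7 and 48.0 CPM of the NK sum were Gata3, a transcription factor gene that T cells and NK cells also use, in 38 and 53 members. Of the T cell marker list, Cd4 and Cd6 were at 0 in both libraries and Cd8a at 0 in the treated one, where 3 UMIs would be 3.102 CPM, while Cd8a was at 10.4 CPM in control NK cells. The summed T cell markers came to 719 and 901 CPM, against 6437 and 6604 CPM in CD8 T cells, and 414 and 541 CPM of the NK sum were Trbc1, present in 169 of 217 and 191 of 220 members. A UMI of Cd3d or Trac was found in 27 treated (12.4%) and 41 control members (18.6%). The gamma-delta T cell list summed to 67.2 and 65.7 CPM, with a UMI in 22.6% and 27.3% of NK cells, above the 35.6 and 23.1 CPM of CD8 T cells. Most of it was Trdc, the delta constant gene, at 48.6 and 50.5 CPM in 34 and 47 members, with Tcrg-C4 at 11.4 and 4.80 CPM and Trdv4 at 7.24 and 10.4 CPM, while the constant genes Tcrg-C1 and Tcrg-C2 were at 0 in both libraries. Summed phagocyte markers were at 59.97 and 81.7 CPM, against 6362 and 4800 CPM in phagocytes. Dendritic cell markers summed to 335 and 342 CPM, of which Fscn1, a marker of mature dendritic cells, came from 2 cells in each library, at 85.8 and 63.3 CPM, and Ccr7 from 32 and 25 cells, while Xcr1 and Siglech were at 0. The part of these cells in the results below was not tested.

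**Figure D1:**
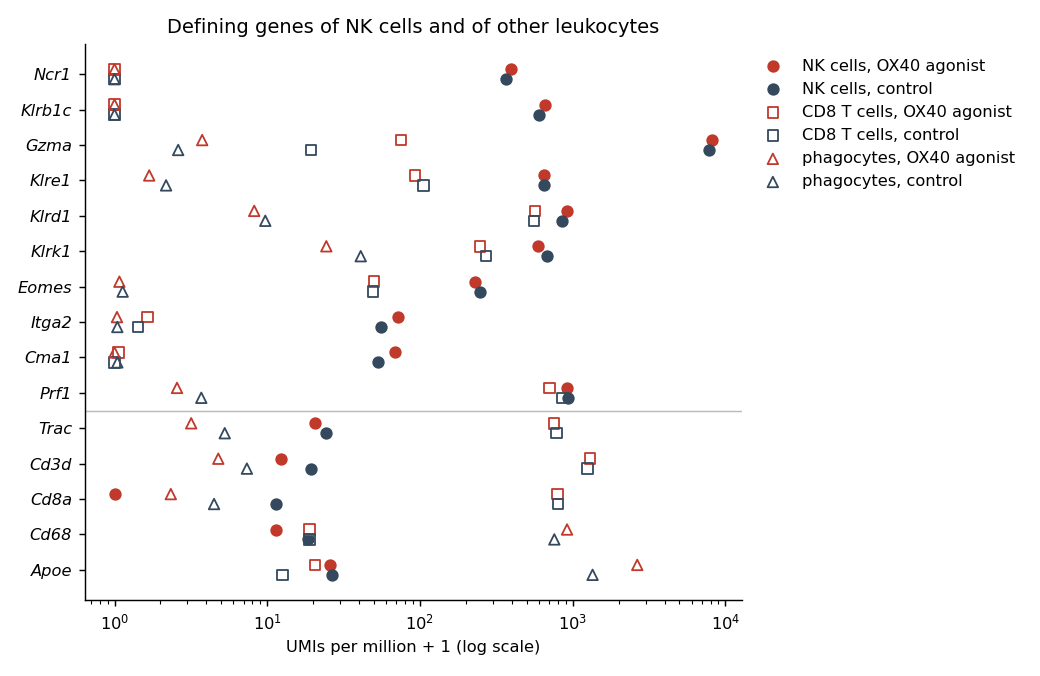
Level of each gene as CPM plus 1 on a log axis, in NK cells (filled circles), CD8 T cells (open squares) and phagocytes (open triangles), with the OX40 agonist library in red above the control library in dark blue. Ncr1 and Klrb1c chose the NK cells; of the others, Gzma lies at 8182 and 7840 CPM in NK cells and at most 74.2 CPM in both other cell types, while Trac, Cd3d and Cd8a lie far to the left in NK cells.

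The Ly49 family (Klra genes) forms a cluster on chromosome 6 and gives mouse NK cells their inhibitory and activating receptors for MHC class I and viral ligands. Klra4 and Klra8 encode the activating receptors Ly49D and Ly49H, and Klra1, Klra3, Klra7 and Klra9 encode the inhibitory receptors Ly49A, Ly49C, Ly49G and Ly49I. Each cell switches on only some of them. In GENCODE M21 on GRCm38 all 6 lie on the minus strand of chromosome 6: Klra4 at chr6:130043731-130067271, Klra8 at chr6:130115226-130129898, Klra9 at chr6:130178675-130193112, Klra7 at chr6:130218605-130233322, Klra3 at chr6:130323289-130337574 and Klra1 at chr6:130363917-130386874. The promoters of 5 genes are shown because the levels below are of neighbouring genes of 1 family, whose promoters are alike to different degrees. They come from RefSeq on GRCm38.p6 and run 5′ to 3′ on the gene's strand from 250 bases before to 50 bases after the annotated start. Capitals mark the longest run of letters that all 5 share.
Klra4 promoter, chr6:130067222-130067521, minus strand: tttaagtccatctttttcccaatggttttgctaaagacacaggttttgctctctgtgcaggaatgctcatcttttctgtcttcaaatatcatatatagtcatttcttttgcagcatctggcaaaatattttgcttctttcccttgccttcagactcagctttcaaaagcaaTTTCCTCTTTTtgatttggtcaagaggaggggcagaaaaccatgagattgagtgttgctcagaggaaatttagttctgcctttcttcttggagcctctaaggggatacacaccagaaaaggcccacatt
Klra8 promoter, chr6:130129849-130130148, minus strand: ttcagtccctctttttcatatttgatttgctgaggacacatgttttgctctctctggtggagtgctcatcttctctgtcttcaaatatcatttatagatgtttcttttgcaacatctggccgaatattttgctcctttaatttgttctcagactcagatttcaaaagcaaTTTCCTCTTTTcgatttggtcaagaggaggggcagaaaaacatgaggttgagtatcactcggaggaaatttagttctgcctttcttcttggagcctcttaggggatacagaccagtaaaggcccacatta
Klra9 promoter, chr6:130193063-130193362, minus strand: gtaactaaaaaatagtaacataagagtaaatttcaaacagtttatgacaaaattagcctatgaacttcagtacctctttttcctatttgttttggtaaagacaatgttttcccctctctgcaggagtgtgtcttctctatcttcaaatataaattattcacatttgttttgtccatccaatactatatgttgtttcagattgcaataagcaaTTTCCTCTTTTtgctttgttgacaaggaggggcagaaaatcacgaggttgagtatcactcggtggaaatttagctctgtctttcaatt
Klra7 promoter, chr6:130233273-130233572, minus strand: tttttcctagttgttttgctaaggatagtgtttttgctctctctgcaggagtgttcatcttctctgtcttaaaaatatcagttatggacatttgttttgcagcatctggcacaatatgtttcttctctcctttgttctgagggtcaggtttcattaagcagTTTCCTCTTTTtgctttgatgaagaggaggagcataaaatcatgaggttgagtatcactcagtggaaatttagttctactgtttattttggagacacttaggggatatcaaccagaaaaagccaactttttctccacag
Klra3 promoter, chr6:130337577-130337876, minus strand: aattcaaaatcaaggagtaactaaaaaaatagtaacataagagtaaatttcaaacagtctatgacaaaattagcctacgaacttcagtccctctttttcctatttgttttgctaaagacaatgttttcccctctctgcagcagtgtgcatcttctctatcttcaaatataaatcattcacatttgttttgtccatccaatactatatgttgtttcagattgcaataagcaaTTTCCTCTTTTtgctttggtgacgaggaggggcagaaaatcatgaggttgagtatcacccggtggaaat
That run of 11 bases, TTTCCTCTTTT, searched on both strands, was present in 49 of 32851 RefSeq promoter windows (0.149%), among them those of Klra2, Klra6 and Klra17. The window of Klra1 did not hold it. Klra3 and Klra9 were the most alike pair, with 96.4% identity over 281 aligned bases, then Klra4 and Klra8 with 86.6%. The lowest was Klra4 and Klra3 with 78.4%. These matches describe sequence and do not show binding by any factor.

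6 Ly49 genes had a UMI in at least 5% of the members of either library, and 4 of them were higher in the OX40 agonist library. Klra4 had 686 CPM in treated NK cells (634 to 740) and 516 CPM in control NK cells (477 to 557), a ratio of 1.33 with a counting interval of 1.19 to 1.48. Klra8 had 455 CPM (413 to 500) and 267 CPM (240 to 298), a ratio of 1.70 (1.47 to 1.97). The intervals of both genes lay apart between libraries, and of the 6 genes Klra8 and Klra1 also passed the size rule given below. Klra9 had 333 CPM in treated cells and 223 CPM in control cells, a ratio of 1.496 (1.27 to 1.76), and Klra1 had 160 and 90.5 CPM, a ratio of 1.77 (1.38 to 2.28). Of the control Klra1 UMIs, 31.0% came from 1 cell. Klra7 and Klra3 did not share this direction: Klra7 was at 433 and 474 CPM, with a ratio of 0.914 (0.804 to 1.04), and Klra3 at 168 and 173 CPM, with a ratio of 0.968 (0.785 to 1.19). By these intervals both activating receptors were higher in treated cells, and of the 4 inhibitory ones 2 were higher and 2 had intervals that include no difference. How many of all genes had intervals apart was not counted. Of 7247 genes of at least 10 CPM, 46.4% were above 0, and 18 of 2623 (0.686%) passed the size rule as higher. In CD8 T cells, Klra3 reached 4.09 and 5.65 CPM and the other 5 genes at most 1.22 CPM.

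The 3′ ends, where this chemistry reads, are not unique in every gene. The windows of 50 bases in the last 400 bases of each gene's longest coding transcript were searched. The search covered transcripts of the other Klra genes and of granzymes B to G, and no other genes. Of these windows, 46.4% for Klra9, 35.3% for Klra7, 33.9% for Klra3 and 15.7% for Klra8 also occurred there, against none for Klra4 and Klra1. Levels of Klra9, Klra7, Klra3 and, to a lesser extent, Klra8 are therefore uncertain, since reads shared with a copy could be dropped or split in the authors' counting.

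Per cell, expression was patchy. Klra4 had a UMI in 114 treated cells (52.5%) and 96 control cells (43.6%), Klra7 in 114 (52.5%) and 128 (58.2%), Klra8 in 101 (46.5%) and 83 (37.7%), Klra9 in 89 (41.0%) and 69 (31.4%), Klra3 in 62 (28.6%) and 64 (29.1%), and Klra1 in 36 (16.6%) and 32 (14.5%). The share of CD8 T cells with a Klra4 UMI was 0.0789% and 0.319% at more than double the depth, and the highest of the 6 genes there was Klra3, with 2.44% and 3.003%, so the NK shares stand above that background. A treated cell held 2.38 of the 6 genes on average and a control cell 2.15, and the most common number was 3 in treated cells (66 of 217) and 2 in control cells (60 of 220). No cell held all 6. No Ly49 UMI was found in 22 treated cells (10.1%, 6.46 to 14.9%) and 32 control cells (14.5%, 10.2 to 19.9%). With every cell thinned to 1000 UMIs to take out the difference in depth, at least 1 Ly49 gene was seen in 172 of 217 treated cells (79.3%, 73.3 to 84.5%) and 148 of 220 control cells (67.3%, 60.6 to 73.4%), and the ratio of 1.18 had a counting interval of 0.940 to 1.48. The mean number after thinning was 1.47 in treated and 1.14 in control cells.

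**Figure D2:**
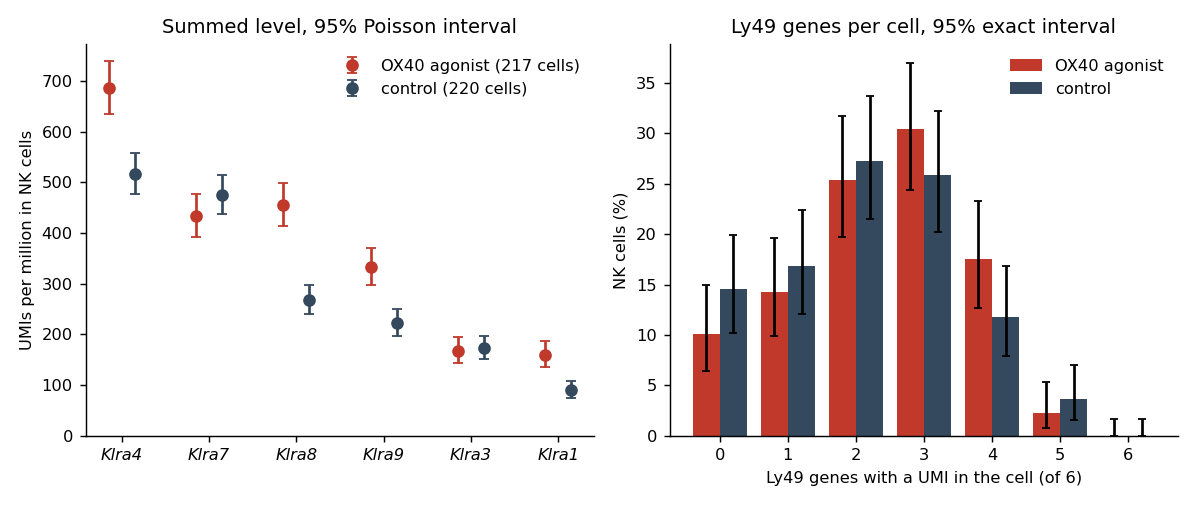
Left, summed CPM of each Ly49 gene in the 217 OX40 agonist (red) and 220 control NK cells (dark blue), with 95% Poisson intervals; the intervals are apart for Klra4, Klra8, Klra9 and Klra1 and overlap for Klra7 and Klra3. How many of all genes had intervals apart was not counted. Right, the percentage of NK cells in which 0 to 6 Ly49 genes had a UMI, with 95% exact intervals; the treated library peaks at 3 genes (30.4%) and the control library at 2 (27.3%).

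Few genes differed by much between the libraries within NK cells. A gene passed the size rule when its Poisson intervals did not overlap and its ratio, after adding 10 CPM to both sides, was at least 1.5, among genes with at least 50 CPM, at least 30 UMIs and a UMI in at least 5% of members in the higher library, and with at least 0.5 times the level over all barcodes there. Of 2623 genes that could pass, 18 were higher in the OX40 agonist library (0.686%) and 22 were lower (0.839%), and the median log2 ratio was -0.02. In CD8 T cells, which are many more, 2 of 2642 genes passed as higher (0.0757%) and 5 as lower (0.189%). Without the 27 treated and 41 control NK cells holding Cd3d or Trac, 14 genes were higher and 20 lower, of which 7 and 12 were among the 18 and 22. Sums over fewer and shallower cells vary more, so the counts of the 2 cell types are not compared.

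Klf2, a transcription factor that in T cells drives the trafficking receptor S1pr1, was one of the 2 lower genes above 400 CPM; the other was the predicted gene Gm42418, with log2 ratios of -0.71 in NK cells and -0.81 in CD8 T cells. Klf2 had 445 CPM in treated NK cells (404 to 489) and 820 CPM in control NK cells (771 to 872), a log2 ratio of -0.87 and a ratio of 0.542 (0.483 to 0.607). The gene lies at chr8:72319033-72321656 on the plus strand (GRCm38). A Klf2 UMI was present in 136 of 217 treated cells and 179 of 220 control cells. After thinning the shares were closer, at 35.0% (28.7 to 41.8%) and 41.4% (34.8 to 48.2%). Klf2 was also lower in the treated library in the other cells, at 61.5 and 72.0 CPM in CD8 T cells, a ratio of 0.855 (0.789 to 0.926), and at 305 and 462 CPM in phagocytes.

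**Figure D3:**
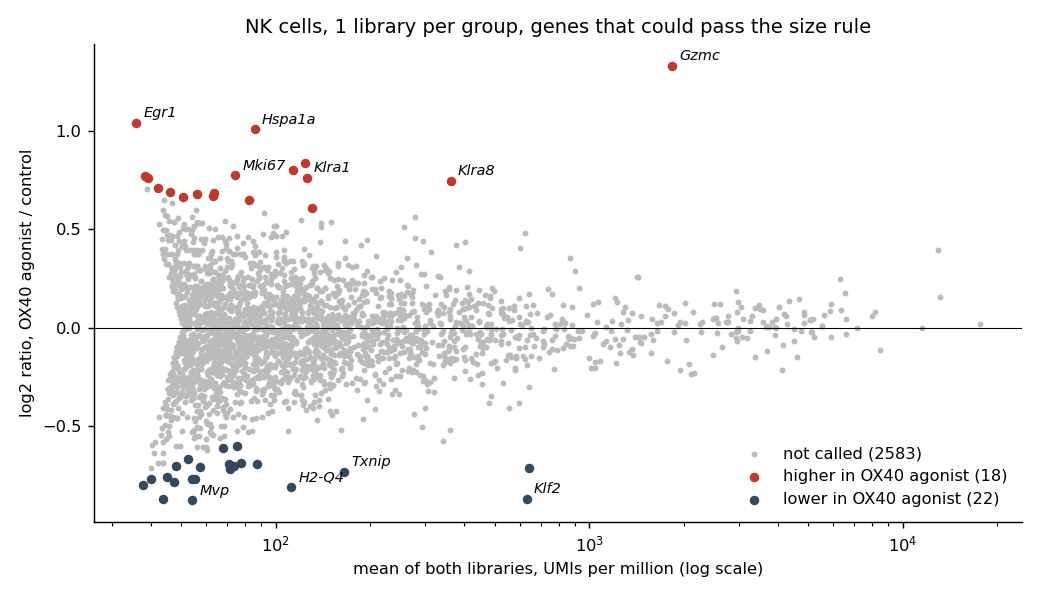
Each point is 1 of the 2623 genes that could pass the size rule in NK cells; the horizontal log axis is the mean of both libraries in CPM and the vertical axis the log2 ratio of OX40 agonist over control. The 18 genes higher (red) and 22 lower (dark blue) are few beside the grey cloud, and Klf2, at a log2 ratio of -0.87, stands at 445 CPM in the OX40 agonist and 820 CPM in the control library.

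The other lower genes were less abundant. Mvp (major vault protein) had 35.2 CPM in treated and 72.9 CPM in control NK cells, the lymphocyte-guiding receptor Gpr183 27.9 and 59.3 CPM, the class I gene H2-Q4 78.6 and 145 CPM, the costimulatory receptor Icos 24.8 and 50.5 CPM, and Phf11b 32.1 and 62.5 CPM. Txnip, an inhibitor of thioredoxin and of glucose uptake, had 122 and 209 CPM, with a UMI in 37.8% of treated and 60.5% of control members. Usf2, Zrsr2, Mtfr1l, Dnmt1 and Gyg had log2 ratios from -0.77 to -0.72. Without members holding Cd3d or Trac, the log2 ratio of Icos was -0.52, of Phf11b -0.72, of Zrsr2 -0.61, of Mtfr1l -0.72, of Dnmt1 -0.74 and of Gyg -0.31, and none of these then passed. In CD8 T cells the ratio was 0.955 (0.885 to 1.03) for Txnip, 0.990 (0.939 to 1.05) for Icos and 0.749 (0.694 to 0.809) for H2-Q4. Without the members that held Cd3d, Trac, Trbc1 or Trbc2, which left 30 treated and 10 control cells, Icos and Gpr183 turned to log2 ratios of 2.07 and 1.64, and Txnip and Zrsr2 to 0.08 and 0.31.

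Gzmc, the gene of granzyme C (chr14:56231441-56234656, minus strand, GRCm38), had the largest log2 ratio of the 18 genes after adding 10 CPM to both sides, and it rested on few cells. It had 2635 CPM in treated and 1043 CPM in control NK cells, a log2 ratio of 1.33 and a ratio of 2.53 (2.36 to 2.70), yet fewer treated cells held it: 34 of 217 (15.7%), against 63 of 220 (28.6%). Of the treated UMIs, 49.8% came from 1 cell and 84.8% from the 2 members with over 15000 UMIs, while 54.5% of the control UMIs came from 5 such members. Without them Gzmc was at 426 CPM in treated and 526 CPM in control cells, a log2 ratio of -0.30. Without the 19 treated and 25 control members that held at least 3 Gzmc UMIs it was at 23.1 and 46.6 CPM. Without members holding Cd3d or Trac the log2 ratio was 0.32 and the gene did not pass. In CD8 T cells Gzmc was at 1372 and 1554 CPM, a ratio of 0.883 (0.868 to 0.898).

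The main granzymes showed no such difference. Gzma had a ratio of 1.04 (1.01 to 1.08) and Gzmb, the main granzyme of activated killer cells, one of 1.08 (1.02 to 1.16), at 1735 and 1601 CPM. Per cell, Gzma had a median of 27 UMIs in treated and 28 in control cells and Gzmb of 4 and 5. Gzmf had 2 UMIs in treated and 239 in control cells, of which 78.2% came from 1 cell.

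Genes of cell division also rested on few cells. In the mitosis list, 14 of 14 measured genes were above 0, with a median log2 ratio of 0.65, against -0.02 over all genes that could pass, and Mki67 and Top2a passed the size rule. Mki67 had 96.2 CPM in treated and 52.1 CPM in control cells, with a UMI in 14 and 16 cells. The 5 cells with the most mitosis UMIs held 72.5% of the treated and 57.5% of the control sum, and the members with at least 3 Gzmc UMIs held 63.8% and 31.3%. Without the members of 3 or more Gzmc UMIs the summed list was at 299 and 293 CPM and the median log2 ratio -0.12. The number of cycling cells, those with at least 2 UMIs of S phase and mitosis genes after thinning, was 30 of 217 treated (13.8%, 9.53 to 19.1%) and 36 of 220 control cells (16.4%, 11.7 to 21.9%), a ratio of 0.845 (0.503 to 1.41). The S phase list had 5 of 13 genes above 0 and a median of -0.08.

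The remaining higher genes included Klra8 (log2 0.74) and Klra1 (0.76), described above. The immediate early gene Egr1 had 51.7 CPM in treated and 20.02 CPM in control cells, with a UMI in 33 and 24 cells. Hspa1a, a heat shock gene, had 118 and 53.7 CPM, but 49.1% of the treated UMIs came from 1 cell, and with at least 3 UMIs of Klrb1c and Ncr1 required its log2 ratio was -0.34. Over the whole list of 17 immediate early and heat shock genes, 9 were above 0 and the median was 0.02. Rgs16, a regulator of chemokine receptor signalling, had 162 and 86.5 CPM, and the noncoding RNA Kcnq1ot1 147 and 80.1 CPM. Wrn, Add3, Khdc1a and Lmo4 had log2 ratios of 0.69 to 0.77 at 50.7 to 58.9 CPM in treated cells. Egr1 (1.02), Wrn (0.69), Add3 (0.53) and Khdc1a (0.63) did not pass without the members holding Cd3d or Trac.

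By function, most gene groups lay close to the background, in which 53.6% of 7247 genes of at least 10 CPM were below 0. The NK identity list had 8 of 16 genes above 0 and a median of 0.01, the activating receptors and adaptors 11 of 18 and 0.05, and the cytotoxic granule list 10 of 19 and 0.02. The lectin-like receptors of the NKG2 family and their kin had 4 of 10 above 0 and a median of -0.01. Among them Klrc1, which encodes the inhibitory receptor NKG2A, had 110 CPM in treated and 147 CPM in control cells. No gene of these groups passed as lower, and only Gzmc passed as higher.

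Several groups had medians below the background. In the MHC class I presentation list 11 of 12 genes were below 0, with a median of -0.15: Psme2 had 428 and 547 CPM, Psmb8 575 and 711 CPM and H2-K1 3548 and 3856 CPM. In glycolysis 12 of 15 were below 0, with a median of -0.23, and Eno1 had 185 and 323 CPM, but could not pass because its level over all barcodes was more than double that in NK cells. Tissue residency genes had 8 of 10 below 0, checkpoint receptors 6 of 8, and NK chemokines 6 of 8, with medians of -0.17, -0.22 and -0.24. The interferon-gamma response list had 8 of 11 below 0 and a median of -0.14, and Gbp4, an interferon-induced GTPase with 34.1 and 61.7 CPM, was the 1 gene of these 6 lists that passed. In CD8 T cells the medians of these lists lay between -0.11 and -0.02. The chemokines did not move together. Ccl5 was higher, with 14751 CPM in treated and 11203 CPM in control cells and a ratio of 1.32 (1.29 to 1.35), under the size rule's limit, while Xcl1 (1413 and 1486 CPM) and Ccl4 (990 and 860 CPM) were close. Ccl1 had 113 and 274 CPM, of which 97.3% and 97.1% came from 1 cell each. Ifng, the gene of interferon-gamma, was at 184 and 206 CPM, a ratio of 0.894 (0.734 to 1.09).

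OX40 itself, encoded by Tnfrsf4, was scarce on NK cells at the RNA level. It had 9.31 CPM in treated and 12.8 CPM in control NK cells, with a UMI in 8 and 14 cells, against 483 and 460 CPM in CD8 T cells. Its ligand gene Tnfsf4 had 8.27 and 5.61 CPM. The related costimulatory receptors Tnfrsf9 (4-1BB) and Tnfrsf18 (GITR) were abundant, at 408 and 466 CPM and at 325 and 279 CPM. In this list 6 of 9 genes were below 0, the median was -0.19, and Icos and Cd28 passed as lower.

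NK cells were also compared with each other within each library, and a gene counts only where it passed the size rule in both libraries with the same direction. These splits use a gene of the same cells, so they describe the cells and are no test. CD49a and CXCR6 are markers of tissue residency, and CD11b (Itgam) of mature circulating NK cells. Cells with Itga1 or Cxcr6 and no Itgam numbered 8 treated and 18 control, and cells with Itgam and neither of the others 30 treated and 42 control. Of 448 genes that could pass, 15 were higher in the first cells (3.35%) and 17 were lower (3.79%). The chemokine gene Xcl1 had 3633 CPM against 838 CPM in the treated library and 2138 against 475 CPM in the control library. The lymphotoxin gene Ltb (618 against 92.1 CPM, and 320 against 100.2 CPM) and S100a4 (724 against 64.5 CPM, and 512 against 187 CPM) went the same way. Gzmc, Stmn1, Tuba1b and Tubb5 did so too, with treated log2 ratios of 8.06, 3.06, 2.59 and 2.68 and control ones of 2.03, 1.80, 1.12 and 1.03. In the treated library 1 cell of 31061 UMIs, of 66339 in the 8 cells, held 893 of the 991 Gzmc UMIs, 35 of 61 of Stmn1, 47 of 62 of Tuba1b, 41 of 82 of Tubb5, 32 of 48 of S100a4 and 19 of 41 of Ltb, and none of Xcl1. Stmn1 and Tuba1b were detected in 2 of the 8 treated cells and Tubb5 in 3, so that Tuba1b and Tubb5 were found in a smaller share of them (25% and 37.5%) than of the Itgam cells (33.3% and 40%).

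Ly49 genes, Klf2, Ccl5 and Gzma were lower in the cells with Itga1 or Cxcr6. Of 13 circulation genes 7 were lower in both libraries and 2 passed, and of 8 mature NK genes 5 were lower and none passed. Of 19 cytotoxic granule genes 7 were lower and 4 higher, with Gzma passing as lower and Gzmc as higher. Over all 8821 genes of at least 10 CPM, 1991 were lower in both libraries and 2140 higher. The tissue residency list did not lean 1 way, with 5 of 11 genes higher, 4 lower and none passing. Klra8 had log2 ratios of -2.54 in the treated and -2.98 in the control library, Klra9 of -2.42 and -1.52, Klra4 of -1.69 and -1.42, and Klf2 of -1.74 and -1.92. Ccl5 had 4537 CPM against 26083 CPM and 4923 against 15623 CPM, and Gzma 5442 against 13719 CPM and 5109 against 12517 CPM. The integrin gene Itga4 (-1.97 and -1.47) was lower as well. The groups are small, and without the cells of highest doublet score 5 and 9 genes passed. Without members over 15000 UMIs 4 higher and 6 lower genes passed, 3 and 5 of them among those above; Xcl1 and Gzmc were still higher and Klra8, Ccl5, Itga4 and Gzma still lower, while Klf2 (-0.87 in the treated library), Klra4 (-0.81 there) and Klra9 (-1.03 in the control library) no longer passed in both. Nor did Ltb, S100a4 and Stmn1, at 2.63, 2.64 and 2.75 in the treated library, or Tuba1b and Tubb5, at -0.056 and 0.26 in the control library.

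The cells with either residency marker were few: the shares of them that held Ly49, Eomes or Rora have 95% binomial intervals that overlap between the libraries, and the differences were not tested. All 7 treated cells with Itga1 held a Ly49 UMI and 6 held Eomes, and none held Cxcr6 or Rora. Of the 8 control cells with Itga1, 4 held a Ly49 UMI, 1 Eomes, 4 Rora and 3 Cxcr6. The 3 treated cells with Cxcr6 held no Ly49 and no Eomes UMI and all held Rora, and of the 15 control cells 7 held a Ly49 UMI, 5 Eomes and 10 Rora. Cxcr6 had 4.14 CPM in treated and 20.8 CPM in control NK cells, a ratio of 0.199 (0.0504 to 0.573), against 482 and 493 CPM in CD8 T cells. After thinning, Itga1 or Cxcr6 was found in 3 of 217 treated (1.38%) and 7 of 220 control cells (3.18%), a ratio of 0.434 (0.0725 to 1.90), and Itgam in 10 (4.61%) and 11 (5.00%), a ratio of 0.922 (0.351 to 2.39), against 0.394% and 0.319% of CD8 T cells. At that depth Itga1 alone was found in 0.922% of treated and 0.455% of control NK cells, against 0.814% and 0.728% of phagocytes. The NK shares thus did not stand clear of those of phagocytes, and the part of free RNA in them was not tested.

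Cells with any Ly49 UMI were compared with cells without one, and again only genes passing in both libraries in the same direction count. Of 8453 genes of at least 10 CPM, 1976 were higher with Ly49 in both libraries and 2420 lower in both. On its own, the treated library had 72 higher and 65 lower genes past the size rule, and the control library 42 and 64. Of 1197 genes that could pass, 16 were higher in cells with a Ly49 UMI (1.34%) and 23 were lower (1.92%). The median depth was 3683 UMIs with Ly49 against 4150 without in the treated library, and 5040 against 4776 in the control library. Of 20 cytotoxic granule genes, 8 were higher with Ly49 in both libraries and 4 were lower, and Gzma and Prf1 passed as higher and Gzmc as lower. Gzma had 8937 CPM against 3184 CPM in the treated library and 8488 against 4246 CPM in the control library, and Prf1 989 against 457 CPM and 1032 against 356 CPM. Eomes had 249 against 94.6 CPM and 275 against 89.1 CPM, Klf2 484 against 181 CPM and 906 against 346 CPM, and the chemokine gene Ccl4 1096 against 284 CPM and 957 against 320 CPM. These 5 genes and Pik3r1 passed also without the highest doublet scores, without members holding Cd3d or Trac, and without members over 15000 UMIs. The doublet restriction left out no treated cell. After thinning, Gzma, Prf1 and Ccl4 still passed, while Eomes, Klf2 and Pik3r1 did not. The thinned log2 ratios of Eomes were 0.11 in the treated and 1.69 in the control library. Those of Klf2 were 1.63 and 0.79.

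Cells with no Ly49 UMI had other genes. Rora, a nuclear receptor gene known from innate lymphoid cells, had 44.0 CPM in treated cells with Ly49 against 418 CPM in those without, and 40.6 against 529 CPM in control cells. It was detected in 12 of 22 treated (54.5%) and 24 of 32 control cells (75.0%) without Ly49. Klrc1 (NKG2A) had 75.0 against 339 CPM and 102 against 398 CPM, and Klrb1b, an inhibitory lectin-like receptor, 137 against 355 CPM and 136 against 383 CPM. Il7r, which encodes the interleukin-7 receptor, had 27.4 against 213 CPM and 27.4 against 241 CPM, but its 27 UMIs in treated cells without Ly49 were under the minimum of 30. Eomes was detected in 4 of 22 (18.2%) and 10 of 32 (31.2%) of them and Cxcr6 in 3 and 8. Gzma was at 5 UMIs or fewer in 15 of 22 and 17 of 32. Klre1 was still at 426 and 488 CPM. Rora, Klrb1b, S100a4, Ltb, Emb, Odc1, Gzmc, Cebpb and Bcl2a1b also passed under those 3 restrictions. After thinning, of these genes only Gzmc still passed. Rora then had log2 ratios of -2.09 in the treated and -3.28 in the control library.

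**Figure D4:**
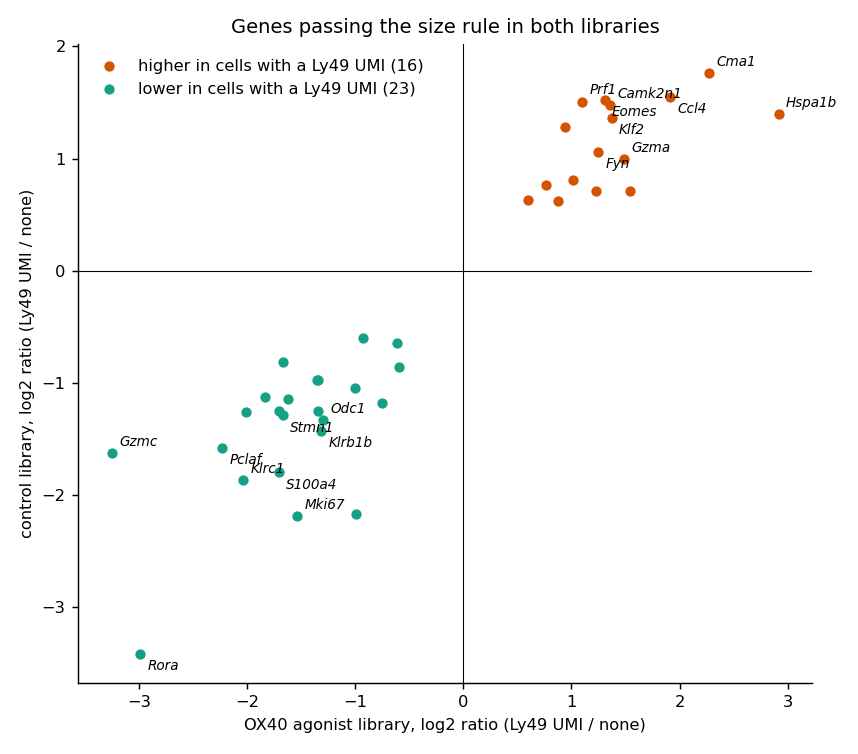
Log2 ratio of cells with any Ly49 UMI over cells with none, in the OX40 agonist library (horizontal, 195 and 22 cells) and the control library (vertical, 188 and 32 cells), for the 39 genes that passed the size rule in both. The 16 genes in the upper right, with Eomes, Prf1 and Klf2, were higher with Ly49 and the 23 in the lower left, with Rora farthest out, were lower.

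Fewer genes passed in splits by Eomes and by Itgam. Cells with an Eomes UMI numbered 120 of 217 treated and 135 of 220 control. Of 2024 genes, 3 were higher in them (0.148%) and 8 were lower (0.395%). Klra4 (log2 ratios 0.91 and 0.78), Klra1 and the chemokine gene Cxcl10 were higher, and Rora (-1.68 and -1.65), Il7r (-1.58 and -1.68), Ly6c2 (-1.77 and -2.01), Klrc1 and Klra9 were among the lower. None of the 3 higher genes and 5 of the 8 lower ones, Rora, Il7r, Ly6c2, Klrc1 and Bcl2a1b, passed under all of the 3 restrictions named above. After thinning none of these 5 passed. Of the 3 higher and 8 lower genes only Klra4 and Gzmc then did. Klra4 and Klra9 had opposite signs, and the shared 3′ end of Klra9 noted above applies. Most cells with Eomes held a Ly49 UMI, 116 of 120 and 125 of 135, but so did 195 of 217 and 188 of 220 of all members. Cells with Eomes were also deeper than those without, with medians of 3981.5 against 3509 UMIs (treated) and 5104 against 4466 (control). After thinning, Eomes was seen in 52 of 217 treated (24.0%) and 40 of 220 control cells (18.2%), a ratio of 1.32 (0.856 to 2.04), against 4.57% and 4.47% of CD8 T cells and none of the phagocytes. Cells with Itgam had more Gzma, 13600 against 7437 CPM in the treated and 11622 against 6906 CPM in the control library, which was the 1 gene of 1173 that passed as higher (0.0853%). The 6 lower ones (0.512%) included Xcl1, Cxcl10, Ltb and Emb.

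The members with at least 3 Gzmc UMIs, 19 treated and 25 control, were deeper than the rest, with a median of 6425 against 3628 UMIs in the treated library and 6466 against 4598 in the control library. Of 1586 genes, 38 were higher in them (2.4%) and 100 were lower (6.31%). Of 16 NK identity genes 12 were lower in both libraries and 6 passed, and of 17 immediate early and heat shock genes 14 were lower and 7 passed. Of 14 S phase genes 12 were higher in both, and of 15 mitosis genes 11. Over all 8375 genes of at least 10 CPM, 2464 were higher in both libraries and 2542 lower. Xcl1 had 3578 against 896 CPM and 3336 against 1046 CPM, and the activation receptor gene Tnfrsf9 819 against 310 CPM and 706 against 409 CPM. Of 15 glycolysis genes 10 were higher in both libraries, with medians of 0.84 and 0.87 against 0.00 and -0.01 over all genes, and Ldha, Eno1 and Aldoa passed. Without members over 15000 UMIs these 3 did not pass, with control log2 ratios of 0.53, 0.38 and 0.62. Lower were Ccl5 (2019 against 17797 CPM, and 3353 against 13066 CPM), Klf2 (134 against 519 CPM, and 75.2 against 997 CPM), Eomes (75.0 against 265 CPM, and 87.7 against 284 CPM) and Gzma (3074 against 9404 CPM, and 4743 against 8575 CPM). Gzmb and Prf1 did not pass. Without members over 15000 UMIs 14 and 30 genes passed, 11 and 29 of them among those above, Xcl1, Tnfrsf9, Ccl5, Klf2 and Eomes included, while Gzma did not pass (-0.47 in the control library). Cd74, the invariant chain of MHC class II, which marks antigen-presenting cells, was also higher (log2 3.14 and 2.49), but at 0.04 in the control library without the highest doublet scores and at 0.71 without members over 15000 UMIs. Of the dendritic cell list, 4 genes were measured, with medians of 1.11 and -0.98. The part of other cells' RNA in this split was not tested.

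Cycling cells, 30 treated and 36 control, were chosen by their cell cycle genes, which lead the 62 of 1584 genes that were higher in them (3.91%). The 10 lower genes (0.631%) were of other kinds. Ifng had 75.5 against 217 CPM in the treated and 132 against 226 CPM in the control library, and Bcl2, which encodes a survival factor, 293 against 663 CPM and 395 against 606 CPM. The group also held the GTPase genes Gimap3 and Gimap6, the receptor gene Klrb1a and the stress gene Ppp1r15a. All of these named genes were also lower in the members with at least 3 Gzmc UMIs. Those members were 7 of the 30 treated and 3 of the 36 control cycling cells. Cycling cells were deeper than the rest, with medians of 5535.5 against 3634 UMIs (treated) and 5639.5 against 4766.5 (control). Whether the genes stay lower in cycling cells without those members was not tested.

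**Figure D5:**
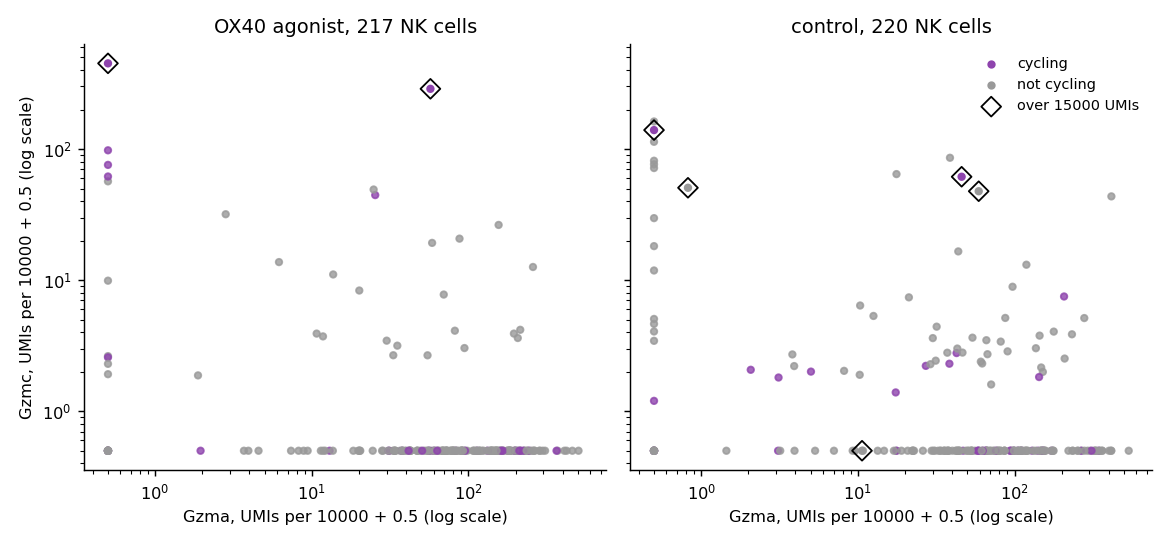
Each point is 1 NK cell of the OX40 agonist (left, 217 cells) or control library (right, 220 cells), with Gzma on the horizontal and Gzmc on the vertical log axis as UMIs per 10000 plus 0.5; purple points are cycling cells and diamonds cells with over 15000 UMIs. Most cells lie at the bottom right, with Gzma and no Gzmc, and few cells carry nearly all of Gzmc.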

How the data were processed

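The deposited matrices hold UMI counts per gene and cell barcode, whole numbers without normalization. Cell Ranger made them on mm10, per the submitters' processing notes. Version 3.1.0 is named per the file headers. The antibody treatment is named in the series title and the labels, whose protocol sorts DAPI- cells, while the design text writes the sign the other way.

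Passing barcodes had 500 or more UMIs and 200 or more genes, and mitochondrial genes gave no more than 10% of their UMIs. These were 7500 of 8569 treated and 6354 of 7187 control barcodes. The member rule removed, after the Klrb1c and Ncr1 threshold (268 treated and 304 control barcodes), 42 and 68 barcodes with Cd3e or Cd3g, 8 and 13 with phagocyte genes and 1 and 3 with melanocyte genes. A simulated-doublet score marked the highest 450 treated and 323 control barcodes, of which 0 and 5 were NK cells. They were kept, and removed only as an alternative. Members and lists were chosen with earlier results of these data known, and the splits by Ly49, Eomes, Itgam, Gzmc and cycling and the cell sets left out were added after seeing the data.

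UMIs were summed over the members of each library and divided by their total (CPM). Intervals are 95% Poisson for levels, exact (Clopper-Pearson) for shares and exact conditional for ratios, and cover counting error only. Log2 ratios are taken after adding 10 CPM to both sides, which understates low genes. For shares, cells were thinned at random to 1000 UMIs. The rule genes were left out of all gene counts. Named genes are the 12 highest and 12 lowest that passed between libraries, the 10 strongest in each direction between the Itga1 or Cxcr6 cells and the Itgam cells, up to 5 of each of 33 lists, the Ly49 genes and the rule's markers; others, from the added splits or named for their cell type, were chosen after their values were seen. List members count from 10 CPM in either library. Of the lists, the circulation list had 7 of 12 genes above 0 with a median of 0.06, immature NK 3 of 8 and -0.04, mature NK 5 of 8 and 0.09, transcription factors 6 of 17 and -0.09, cytokine receptors 7 of 17 and -0.03, cytokines and death ligands 2 of 7 and -0.15, TGF-beta response 6 of 8 and 0.14, type I interferon 4 of 10 and -0.14, and hypoxia 3 of 8 and -0.14. The size rule was also run on simulated Poisson counts drawn from a shared mean per gene, without UMIs clumped in single cells. That setting cannot show how the rule acts where a single cell holds much of a gene. Python 3.11.15, NumPy 2.4.6, SciPy 1.17.1, pandas 2.3.3, scikit-learn 1.9.0 and Biopython 1.88 were used. A few items are not reported here. Gene positions and 3′ ends came from GENCODE M21 on GRCm38.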

Additional observations from a re-analysis of the deposited data

Results flagged for a closer look

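Some results ran opposite ways between libraries in NK cells and in CD8 T cells. These differences between cell types were not tested. Gzmc had a ratio of OX40 agonist over control of 2.53 in NK cells and 0.883 in CD8 T cells, Mki67 one of 1.85 in NK cells and 0.773 in CD8 T cells, and Klra9 one of 1.5 in NK cells and 0.215 in CD8 T cells, where it was at 0.128 and 0.595 CPM. The Klra9 ratio in CD8 T cells had a counting interval of 0.0237 to 0.937 and rests on trace levels. The mitosis list had a median log2 ratio of 0.65 in NK cells, with 14 of 14 genes above 0, and of -0.11 in CD8 T cells, with 15 of 15 below 0. In NK cells the members with at least 3 Gzmc UMIs held 99.3% of treated and 96.4% of control Gzmc UMIs and 63.8% and 31.3% of the mitosis UMIs.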

How the results depend on the processing

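No paired analysis was possible because each group is 1 library. The Klf2 and Klra8 calls held under all 14 alternatives, with log2 ratios of -1.20 to -0.80 and 0.66 to 1.34. Not all of these could undo a call. A limit of 1000 UMIs removed no member, and dropping the minimum level or adding 1 CPM in place of 10 cannot remove a call. Klra1 ran from 0.024 to 1.11 and lost its call in 3 of the 14. Klra9 ran from -0.20 to 1.05 and Klra4 from 0.32 to 0.79. Thinning members to 1000 UMIs left 6 genes higher, 1 of them among the 18, and 10 lower, 2 of them among the 22. Without a minimum level 37 were higher and 48 lower. These held all 18 and 22 by construction, since only the minimum was dropped. The gate that also excluded Cd3d, Trac, Trbc1 and Trbc2, of which Trbc1 alone is found in most members, left 30 and 10 cells: the share ratio was 2.54, 8 genes were lower, the Itga1 or Cxcr6 and Itgam ratios had no value, the mitosis median was -0.77, and log2 ratios were -0.52 for Hspa1a, -0.51 for Kcnq1ot1, -0.52 for Add3, -0.77 for Khdc1a, -1.32 for Lmo4, 0.079 for Txnip, 0.31 for Zrsr2, 2.07 for Icos and 1.64 for Gpr183. Icos was 0.25 after thinning and Hspa1a -0.34 with at least 3 rule UMIs. Without members of 3 or more Gzmc UMIs Gzmc was -0.77 and the mitosis median -0.12, and without members over 15000 UMIs Gzmc was -0.30. The phagocyte marker median was 0.0082 without the highest doublet scores. Between the Itga1 or Cxcr6 cells and the Itgam cells, 5 and 9 genes passed without the highest doublet scores, and 2 and 5 after thinning to 2000 UMIs, where Dynll1 turned to -0.57 in the treated library. Without members over 15000 UMIs 4 and 6 passed, Dynll1 was -0.22 in the treated and Tuba1b -0.056 in the control library. For cells with a Ly49 UMI, 9 higher and 13 lower genes passed without the highest doublet scores, 10 and 14 without Cd3d or Trac, 13 lower without members over 15000 UMIs, and 3 and 2 after thinning to 1000 UMIs. For the Gzmc split, 14 and 30 passed without members over 15000 UMIs and 2 and 10 after thinning. For Eomes, 1 and 5 passed without Cd3d or Trac and 1 and 1 after thinning, and for Itgam 3 higher without Cd3d or Trac, and 4 and 1 after thinning. Apart from what thinning removes by its construction, the causes were not tested. Depth limits the gene calls to genes of at least 50 CPM and 30 UMIs.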

Other observations

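Vegfa, which encodes a growth factor for blood vessels, was a well-detected message of these NK cells. It had 267 CPM in treated and 218 CPM in control NK cells, a ratio of 1.22 (1.03 to 1.46), with a UMI in 123 of 217 and 124 of 220 cells. CD8 T cells had 5.44 and 4.502 CPM, and phagocytes 144 and 160 CPM. At the same thinned depth a Vegfa UMI was found in 22.6% of treated and 20.9% of control NK cells, against 14.7% and 15.6% of phagocytes.

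Cma1, a protease gene best known from mast cells, was at 67.2 and 52.1 CPM in NK cells, in 38 and 35 cells, and at 0.0640 and 0 CPM in CD8 T cells. A list of 6 other mast cell and basophil markers summed to 1.03 and 0 CPM. In the comparison of cells with any Ly49 UMI against cells with none it was higher in both libraries (log2 2.27 and 1.76).

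Members often held Klra4 and Klra7 together, in 75 treated cells, against 59.9 from the product of the shares, and in 64 control cells against 55.9. Klra1 and Klra3 were together in 5 treated cells, against 10.3, and in 9 control cells against 9.31. These counts are descriptions, since depth and shared 3′ ends also link genes in a cell.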
